A study of Mus musculus with 19 samples.

Results

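RNA levels of 9 genes of the RAS and mitogen-activated protein kinase (MAPK) pathway were followed in primary mouse sarcomas. The genes were the RAS genes Hras and Nras, the kinase gene Braf, and the ERK feedback targets Dusp4, Dusp6, Spry2, Spry4, Etv4 and Etv5. They were chosen by symbol, and all 9 were found among the 48795 gene rows, of which 48349 could be matched to a symbol. The tumors were 19 p53/MCA sarcomas, 11 from Rag2-/- mice and 8 from Rag2+/- littermates. Rag2 is needed to rearrange antigen receptor genes, so Rag2-/- mice lack mature T and B cells, while mice with 1 working copy have them. In both groups an adenovirus brought Cas9 and a guide against Trp53 into the gastrocnemius muscle of mice 6 to 10 weeks old, followed by 300 µg of the carcinogen 3-methylcholanthrene (MCA). Both groups therefore share Trp53 targeting and MCA, the mice received no therapy, and the tumors were taken at a volume of about 70 to 150 mm3. Cas9 was delivered transiently into injected muscle, and each library is bulk RNA of 1 whole tumor.

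RAS proteins are small GTPases that growth factor receptors switch on at the membrane. Active RAS recruits RAF kinases such as Braf, which pass the signal through MEK to ERK. ERK in turn raises a set of genes that damp the same pathway or act as its transcription factors, and these are widely used as a readout of ERK output. Dusp4 and Dusp6 encode phosphatases that switch ERK off, Spry2 and Spry4 encode Sprouty inhibitors of receptor signaling, and Etv4 and Etv5 encode ETS transcription factors of the PEA3 family.

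Values are log2 of the authors' upper-quartile normalized FPKM (fragments per kilobase of gene, scaled to library size) after 0.1 had been added, so 1 unit is a doubling and levels can be compared between genes. From the steps between low values, depth was estimated at 24.8 to 33.7 M fragments in 18 tumors and at 5.23 M in S41 (Rag2-/-). The tumors also differed in muscle content. The mean of 12 skeletal muscle genes lay at 4.33 to 9.97 in 14 tumors and at 11.9 to 13.1 in the other 5, which were S51 (Rag2-/-) and S52, S56, S59 and S60 (all Rag2+/-). Hence 1 of 11 Rag2-/- and 4 of 8 Rag2+/- tumors lay above the gap, and the genotype differences and correlations below are given also for the 14 tumors below it. S46 (Rag2-/-) had the highest mean over 6 adipocyte genes, 8.65, and over 9 macrophage genes, 8.15. Rag2 itself was low throughout, between −2.05 and 0.36 in Rag2-/- and between −2.33 and −0.57 in Rag2+/- tumors, with means of −0.34 ± 0.74 (SD, n = 11) and −1.31 ± 0.70 (SD, n = 8), so it was not lower in the knockout. Which part of Rag2 the knockout allele lacks is not given in the sources used here, so its RNA does not check the labels. Means over 12 T cell genes (−2.11 to −1.40 in Rag2-/- and 0.31 to 2.74 in Rag2+/- tumors) and over 8 B and plasma cell genes (−2.70 to −2.07 and −0.08 to 2.42) did not overlap between the genotypes.

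All 9 genes were expressed in these sarcomas, over a wide range of levels. By mean level over the 19 tumors the order was Hras (5.41), Dusp6 (4.83), Nras (4.61), Spry2 (4.20), Etv5 (3.97), Etv4 (3.22), Dusp4 (2.50), Spry4 (2.40) and Braf (1.99). No gene differed from its neighbor in this order by more than 1 SD of their difference across tumors. Hras was above Dusp6 in 11 of 19 tumors, for example, and Etv5 above Etv4 in 15 of 19. The genes differed more clearly in how much they varied. Nras was among the steadiest genes of these tumors, with an SD of 0.24 that was above the SD of only 7.75% of the 12826 genes tested. Etv4 was among the most variable, with an SD of 1.96, above that of 97.0% of genes. Braf (31.7%), Hras (64.2%) and Dusp6 (65.7%) lay between these, and Etv5 (77.6%), Spry2 (79.1%), Dusp4 (82.9%) and Spry4 (88.3%) toward the variable end. In normalized FPKM the highest tumor was 1.75 times the lowest for Nras, 2.80 times for Braf, 23.3 times for Spry4 and 115 times for Etv4. Single tumors set much of these ranges, since Etv4 covered 40.8 times without S46 and Spry4 13.4 times without S53. Within the 14 tumors of lower muscle level the SD fell to 0.21 for Hras, 0.61 for Spry4 and 0.47 for Etv5, and was 1.57 for Etv4 and 0.20 for Nras.

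**Figure D1:**
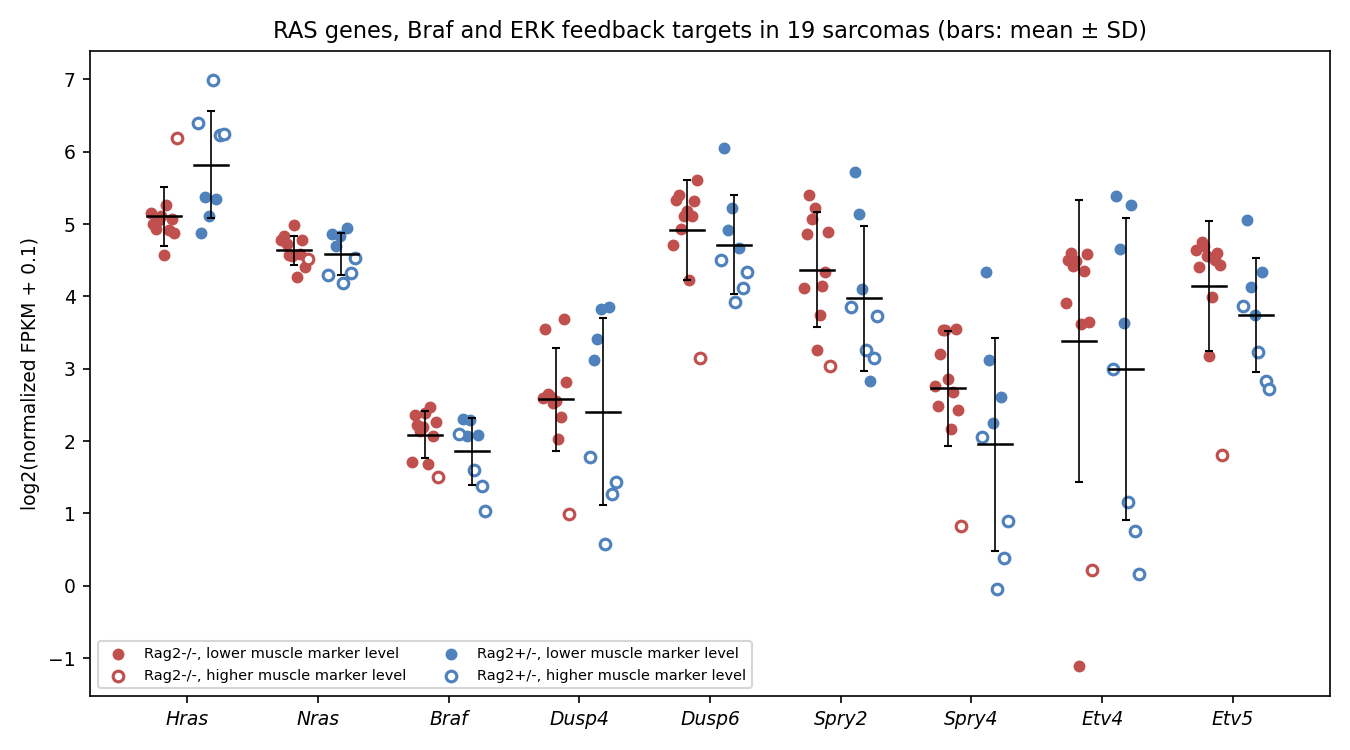
Level of each of the 9 genes in 19 tumors, as log2(normalized FPKM + 0.1) on the vertical axis, with Rag2-/- tumors in red and Rag2+/- tumors in blue. Bars are the mean ± SD of each genotype and open circles the 5 tumors with the higher muscle marker level, which carry the highest Hras values (6.19 to 6.99) and most of the lowest values of the feedback targets.

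Hras (ENSMUSG00000025499, GRCm38 chromosome 7, 141189105 to 141194005, minus strand) had the highest mean of the 9 genes. In Rag2-/- tumors its lowest, median and highest levels were 4.57, 5.05 and 6.19, and in Rag2+/- tumors 4.88, 5.80 and 6.99. The groups overlapped, and the 5 highest values were all in tumors with the higher muscle level, at 6.19 in S51, 6.39 in S52, 6.99 in S56, 6.23 in S59 and 6.25 in S60. The other 14 tumors lay between 4.57 and 5.37. Mean Hras was 5.10 ± 0.40 (SD, n = 11) in Rag2-/- and 5.82 ± 0.74 (SD, n = 8) in Rag2+/- tumors. Rag2-/- minus Rag2+/- was −0.72 with an SE of 0.25. A two-sided exact permutation test of Hras alone gave p = 0.0124, while limma's adjusted p over all genes was 0.301. Among the 14 tumors of lower muscle level the Hras difference was −0.18 with an SE of 0.13 (exact permutation p = 0.157). With the skeletal muscle mean as a covariate it was −0.23 with an SE of 0.17 (limma adjusted p = 0.999). The part of muscle content in the Hras difference was not tested beyond these fits.

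Nras (ENSMUSG00000027852, chromosome 3, 103058285 to 103067914, plus strand) encodes a second RAS GTPase and was nearly level across tumors. Its lowest, median and highest values were 4.27, 4.59 and 4.98 in Rag2-/- tumors and 4.18, 4.62 and 4.94 in Rag2+/- tumors. The highest value was in S46 and the lowest in S56, the tumor that was highest in Hras. The genotype difference of Nras, 0.05 with an SE of 0.12, was below the spread between tumors (exact permutation p = 0.652). Within the 14 tumors of lower muscle level it turned to −0.19 with an SE of 0.12 (exact permutation p = 0.126).

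Braf (ENSMUSG00000002413, chromosome 6, 39603237 to 39725463, minus strand), the RAF kinase below RAS, had the lowest mean of the 9. In Rag2-/- tumors it was at 1.51, 2.19 and 2.48 (lowest, median and highest), and in Rag2+/- tumors at 1.04, 2.08 and 2.30. The lowest 3 values were in S60, S59 and S51, all of the higher muscle level. Braf differed by 0.23 between genotypes, with an SE of 0.19 (exact permutation p = 0.214), and by −0.04 with an SE of 0.16 within the 14 tumors. Without S60 the difference over 18 tumors was 0.11. An exon of Ndufb2 overlaps Braf on the opposite strand, and since it is not given whether reads were counted by strand, some Braf signal could belong to Ndufb2. Exons of the other 8 genes overlap no other annotated gene.

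Upstream sequences are shown for Hras, Braf and Dusp6, since Hras with Braf and Hras with Dusp6 had the Spearman coefficients farthest from 0 within the 14 tumors of lower muscle level. Each is the 250 bases before the RefSeq start on GRCm38.p6, written 5′ to 3′ on the strand of the gene. They lie at chr7:141194005-141194254 (minus strand), chr6:39725464-39725713 (minus strand) and chr10:99262981-99263230 (plus strand). Capitals mark matches on either strand to an ETS motif (CCGGAAG), an AP-1 motif (TGANTCA), a cyclic AMP response element or CRE (TGACGTCA) or a GC box (GGGCGG), with no match overlapping another in these 3 sequences.
Hras: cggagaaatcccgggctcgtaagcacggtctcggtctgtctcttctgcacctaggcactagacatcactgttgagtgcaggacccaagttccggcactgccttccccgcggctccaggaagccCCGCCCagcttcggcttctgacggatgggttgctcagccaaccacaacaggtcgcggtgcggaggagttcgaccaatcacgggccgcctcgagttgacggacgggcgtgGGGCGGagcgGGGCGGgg
Braf: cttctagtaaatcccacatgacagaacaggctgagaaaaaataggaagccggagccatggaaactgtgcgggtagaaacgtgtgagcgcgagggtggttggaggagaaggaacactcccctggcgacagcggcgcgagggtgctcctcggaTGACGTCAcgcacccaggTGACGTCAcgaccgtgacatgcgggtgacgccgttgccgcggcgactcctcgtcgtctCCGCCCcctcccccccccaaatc
Dusp6: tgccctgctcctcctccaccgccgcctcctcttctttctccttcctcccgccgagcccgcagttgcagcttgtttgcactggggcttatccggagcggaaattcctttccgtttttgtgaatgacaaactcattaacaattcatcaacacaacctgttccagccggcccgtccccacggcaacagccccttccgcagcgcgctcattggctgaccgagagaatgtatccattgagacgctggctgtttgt
Hras held 3 GC boxes, Braf held 2 CREs and 1 GC box, and Dusp6 held none of the 4 motifs. Among all 32851 mouse RefSeq windows of this length, 32.7% held a GC box, 1.55% a CRE, 6.91% the ETS motif and 6.75% the AP-1 motif. Of the other members in the same set, Nras held 2 overlapping GC boxes, Spry2 held no match, and Etv5 had 3 GC boxes before 1 of its 2 listed starts and none before the other. These matches describe letters and not binding, and RNA levels do not test them.

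Dusp6 (ENSMUSG00000019960, chromosome 10, 99263231 to 99267489, plus strand), the cytoplasmic ERK phosphatase, was the highest of the feedback targets. Levels were 3.15, 5.11 and 5.61 (lowest, median and highest) in Rag2-/- tumors and 3.92, 4.58 and 6.06 in Rag2+/- tumors. S53 (Rag2+/-) was highest and S51 lowest, and the groups overlapped. Dusp6 differed by 0.20 with an SE of 0.31 (exact permutation p = 0.542), and by −0.12 with an SE of 0.25 within the 14 tumors (exact permutation p = 0.661). With single tumors left out, its difference over the remaining 18 ran from 0.088 without S56 to 0.39 without S53.

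Dusp4 (ENSMUSG00000031530, chromosome 8, 34807297 to 34819894, plus strand), the related nuclear phosphatase, had a lower level than Dusp6. Its values were 0.996, 2.59 and 3.68 in Rag2-/- tumors and 0.58, 2.44 and 3.85 in Rag2+/- tumors, again as lowest, median and highest. All 5 tumors of higher muscle level lay at 0.58 to 1.77, and all 14 others at 2.03 to 3.85. Over all 19 tumors the Dusp4 difference was 0.17 with an SE of 0.44 (exact permutation p = 0.719). Among the 14 tumors of lower muscle level its direction was the opposite. There Dusp4 was 2.73 ± 0.51 (SD, n = 10) in Rag2-/- and 3.55 ± 0.35 (SD, n = 4) in Rag2+/- tumors, and Rag2-/- minus Rag2+/- was −0.82 with an SE of 0.26. The exact permutation p of Dusp4 alone was 0.0130 in that set, but limma's adjusted p over all genes was 0.925, and 2 Rag2-/- tumors (S42 at 3.54 and S49 at 3.68) lay inside the Rag2+/- range of 3.12 to 3.85.

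Both Sprouty genes ranged widely. Spry2 (ENSMUSG00000022114, chromosome 14, 105891947 to 105896819, minus strand) was at 3.04, 4.34 and 5.40 (lowest, median and highest) in Rag2-/- tumors and at 2.83, 3.79 and 5.71 in Rag2+/- tumors. The lowest Spry2 value was in S58 (Rag2+/-), a tumor of the lower muscle level. Spry4 (ENSMUSG00000024427) was at 0.83, 2.76 and 3.55 in Rag2-/- tumors and at −0.05, 2.15 and 4.34 in Rag2+/- tumors. Its lowest 5 values were those of the 5 tumors of higher muscle level, from −0.05 in S56 to 2.05 in S52. Genotype differences were 0.40 with an SE of 0.39 for Spry2 (exact permutation p = 0.338) and 0.78 with an SE of 0.49 for Spry4 (exact permutation p = 0.155). In the set of 14 tumors they were 0.06 with an SE of 0.47 and −0.16 with an SE of 0.35. With single tumors left out, Spry2 ran from 0.24 without S58 to 0.65 without S53, and Spry4 from 0.49 without S56 to 1.12 without S53.

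Etv4 (ENSMUSG00000017724, chromosome 11, 101769742 to 101785371, minus strand) covered the widest range of the 9 genes. Its levels were −1.12, 4.35 and 4.60 (lowest, median and highest) in Rag2-/- tumors and 0.16, 3.31 and 5.38 in Rag2+/- tumors. Of the 11 Rag2-/- tumors, 9 lay at 3.62 to 4.60, while S51 was at 0.22 and S46 at −1.12. The S46 value is 0.36 normalized FPKM and an estimated 21.5 fragments. Among the Rag2+/- tumors, S56 (1.15), S59 (0.76) and S60 (0.16) were low, S52 was at 2.99 and the other 4 at 3.63 to 5.38. Etv4 differed by 0.38 with an SE of 0.87 between genotypes (exact permutation p = 0.675), and by −1.03 with an SE of 0.83 within the 14 tumors (exact permutation p = 0.290). In the 15 tumors shown in the study's figure it was 1.01 with an SE of 0.69.

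Etv5 (ENSMUSG00000013089, chromosome 16, 22381309 to 22439719, minus strand), from the same family, was steadier. Its lowest, median and highest levels were 1.80, 4.50 and 4.75 in Rag2-/- tumors and 2.72, 3.80 and 5.05 in Rag2+/- tumors. S51 was again low at 1.80, and S46 was at 3.18, the lowest of the 14 tumors of lower muscle level. The Etv5 difference was 0.40 with an SE of 0.38 (exact permutation p = 0.327), and 0.06 with an SE of 0.27 within the 14 tumors. Without S51 it was 0.64 and without S60 it was 0.26. In the 15 tumors that the study plotted it was 0.68 with an SE of 0.28 (limma p = 0.0290, adjusted p = 0.218).

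Single tumors stood at the ends for many genes at once. S53 (Rag2+/-) held the highest value of 5 of the 9 genes, Dusp6, Spry2, Spry4, Etv4 and Etv5. S56 (Rag2+/-), with the highest muscle mean of 13.1, held the lowest value of Nras, Dusp4 and Spry4 and the highest of Hras. S46, which like S56 was not in the study's figure, split the targets. Its Dusp6, at 5.18, and Spry4, at 2.86, lay near the medians of the 14 tumors (5.15 and 2.81), while its Etv4 and Etv5 were the lowest of the 14 and its Spry2, at 3.26, the second lowest. It had the highest Nras and the lowest Hras of all 19 tumors. In bulk RNA, fewer cells that express a gene and less RNA per cell cannot be told apart.

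Between genotypes, none of the 9 genes passed limma's test at an adjusted p of 0.05. In all, 4 of 12826 genes passed (0.0312%), all lower in Rag2-/- tumors. At an unadjusted p under 0.05, 1 of the 9 genes passed (Hras, 11.1%) against 16.3% of all genes, so the members' share was no higher than the background. That background rests on single tumors, being 7.14% without S56 and 32.4% without S51, and it was 4.18% with the muscle mean as a covariate, where 0 of 9 members passed, and 4.16% within the 14 tumors, where 1 of 9 did (Dusp4, 11.1%). With Xist as a covariate it was 7.52%, and Hras had a limma p of 0.0277. The study used male and female mice, and the part of sex was not tested. In the 15 tumors of the study's figure the background was 22.1%, and 1 member was higher (Etv5) and 1 lower (Hras). Over the 19 tumors with no covariate, 8 of the 9 differences were positive. The median of the 9 was 0.23 beside a median of 0.06 over all genes tested. These are not 9 independent signs, since 29 of 36 gene pairs were correlated over these tumors, as given below. The share of all genes in each direction was not counted, here or in the fits that follow. With the muscle mean as a covariate all 9 differences were negative, with a median of −0.22 beside −0.02 over all genes. The 8 positive estimates thus all changed sign, from Spry2 at −0.03 to Etv4 at −0.87. Values for the 14 tumors were negative for 7 of the 9 genes, all but Spry2 and Etv5. Within these 14 tumors the estimate farthest from 0 was that of Etv4, −1.03 with an SE of 0.83.

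**Figure D2:**
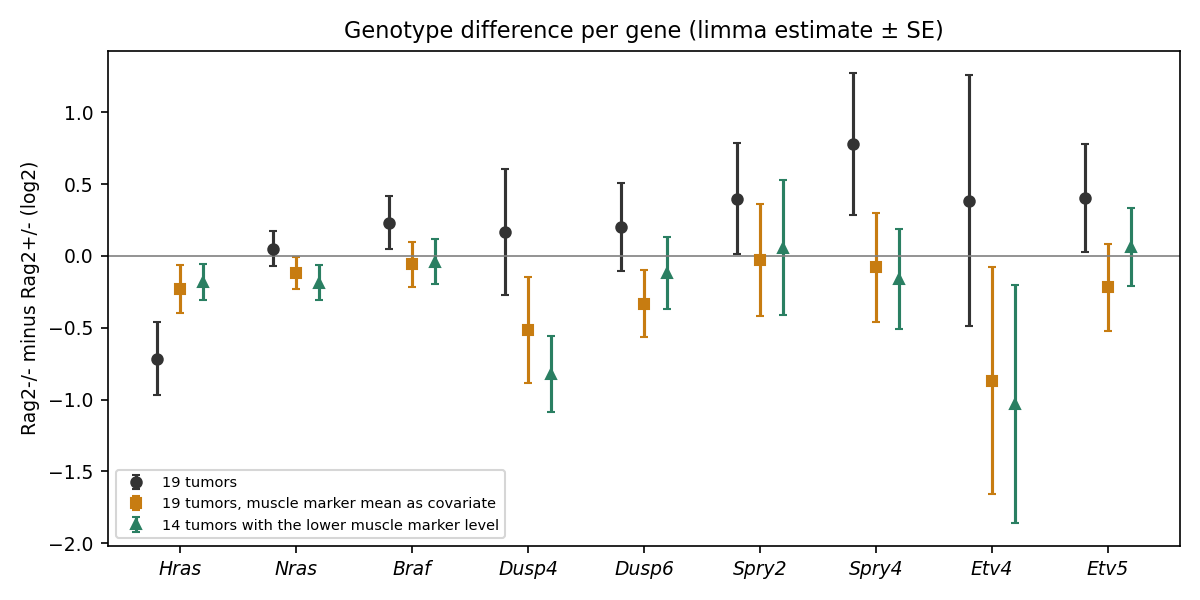
Difference between Rag2-/- and Rag2+/- tumors (log2, Rag2-/- minus Rag2+/-) for each gene, with bars of 1 SE from limma, over 19 tumors (circles), over 19 tumors with the muscle marker mean as a covariate (squares) and over the 14 tumors of lower muscle level (triangles). Hras was the lowest circle at −0.72, and all 9 squares lay below 0.

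Genes around the members were read in 6 lists of 82 genes, 73 of them tested, and none passed at an adjusted p of 0.05. At an unadjusted p under 0.05, 4 were higher and 6 lower in Rag2-/- tumors, 13.7% of those tested against 16.3% of all genes. Of 9 receptor genes tested, 2 were past that level. Egfr, the epidermal growth factor receptor, had the lowest p of all 73 genes, at 3.43 ± 0.50 (SD, n = 11) in Rag2-/- and 2.57 ± 0.69 (SD, n = 8) in Rag2+/- tumors. This was a difference of 0.86 with an SE of 0.26 (limma p = 0.00360, adjusted p = 0.301), and 0.75 with an SE of 0.29 with muscle as a covariate. All 9 receptor differences were positive, but 5 of 9 were with muscle as a covariate and 4 of 9 within the 14 tumors, where Egfr was at 0.78 with an SE of 0.28 (limma adjusted p = 0.962). Of 16 ligand genes, 1 was higher and 3 were lower past the unadjusted level. Fgf10, a growth factor for FGF receptors, differed by 1.31 with an SE of 0.58, and Pdgfb, a ligand of PDGF receptors, by −0.52 with an SE of 0.20 (limma adjusted p = 0.301 for both). Over the 14 tumors these were 0.73 with an SE of 0.50 and −0.33 with an SE of 0.22.

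Inside the cascade, 17 of 17 genes were tested and 3 were past the unadjusted level, all lower in Rag2-/- tumors. Araf, a RAF kinase like Braf, had the lowest p among them, at −0.55 with an SE of 0.23, and −0.11 both with muscle as a covariate (SE 0.16) and within the 14 tumors (SE 0.11). Shc1, an adaptor that links receptors to RAS activation, had the lowest p in the other direction, at 0.50 with an SE of 0.26, but was at 0.034 with muscle as a covariate and 0.088 within the 14 tumors. Of 9 tested brakes on RAS (GTPase activating proteins and Spred genes), 1 was past the unadjusted level. This was Rasa3, a GTPase activating protein, at 0.36 with an SE of 0.16, while Dab2ip had the lowest p below 0, at −0.25 with an SE of 0.16. Rasa3 was at 0.39 with muscle as a covariate and 0.23 within the 14 tumors, and Dab2ip at −0.17 and 0.043. Of 10 other ERK target genes and 12 immediate early genes, none was past it. Epha2, an ephrin receptor, differed by 0.66 with an SE of 0.37 and Dusp2, an ERK phosphatase of immune cells, by −0.02 with an SE of 0.32. With muscle as a covariate Epha2 was at 0.080 and Dusp2 at 0.053, and within the 14 tumors they were at 0.28 and −0.40. For the immediate early genes Ier2 and the stress factor Atf3 the values were 0.19 with an SE of 0.29 and −0.59 with an SE of 0.43, against −0.23 for both with muscle as a covariate and −0.26 and −0.44 within the 14 tumors. The median difference was −0.06 for the cascade, 0.28 for the brakes, 0.24 for the other ERK targets, 0.05 for the immediate early genes, 0.33 for the receptors and 0.35 for the ligands. With muscle as a covariate the medians of the brakes, the other ERK targets and the immediate early genes turned negative, at −0.17, −0.24 and −0.20, and those of the receptors and ligands fell to 0.038 and 0.15. The medians over the 14 tumors were −0.036 for the cascade, −0.14 for the brakes, −0.24 for the other ERK targets, −0.087 for the immediate early genes, −0.036 for the receptors and 0.18 for the ligands.

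Plotted against the muscle marker level, Hras was highest in the 5 tumors at 11.9 or more, and most of the other 8 genes were low there. In those 5 tumors Dusp6 lay at 3.15 to 4.50, Spry2 at 3.04 to 3.85, Etv4 at 0.16 to 2.99 and Etv5 at 1.80 to 3.86. Other list means also differed between the 5 and the 14 tumors. The cell cycle list was at 0.96 to 3.53 in the 5 and 3.69 to 5.12 in the 14, and the RAS brakes at 1.62 to 2.28 and 2.42 to 3.02. The cascade list was higher in the 5, like Hras, at 4.65 to 5.01 beside 4.36 to 4.54. With some overlap, the fibroblast list was at 5.35 to 6.96 and 6.69 to 7.97, the other ERK targets at 2.12 to 3.05 and 2.51 to 4.19, and the Schwann cell list at 2.13 to 4.64 and 0.15 to 2.79. The part of these lists in the members' values was not tested. Hras, Dusp4 and Spry4 did not overlap between the 5 and the 14 tumors. The share of all genes tested that separate in this way was not counted, so the separation is not shown to be particular to these genes. Since the tumors formed separate sets on this measure, no coefficient over all 19 is given.

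**Figure D3:**
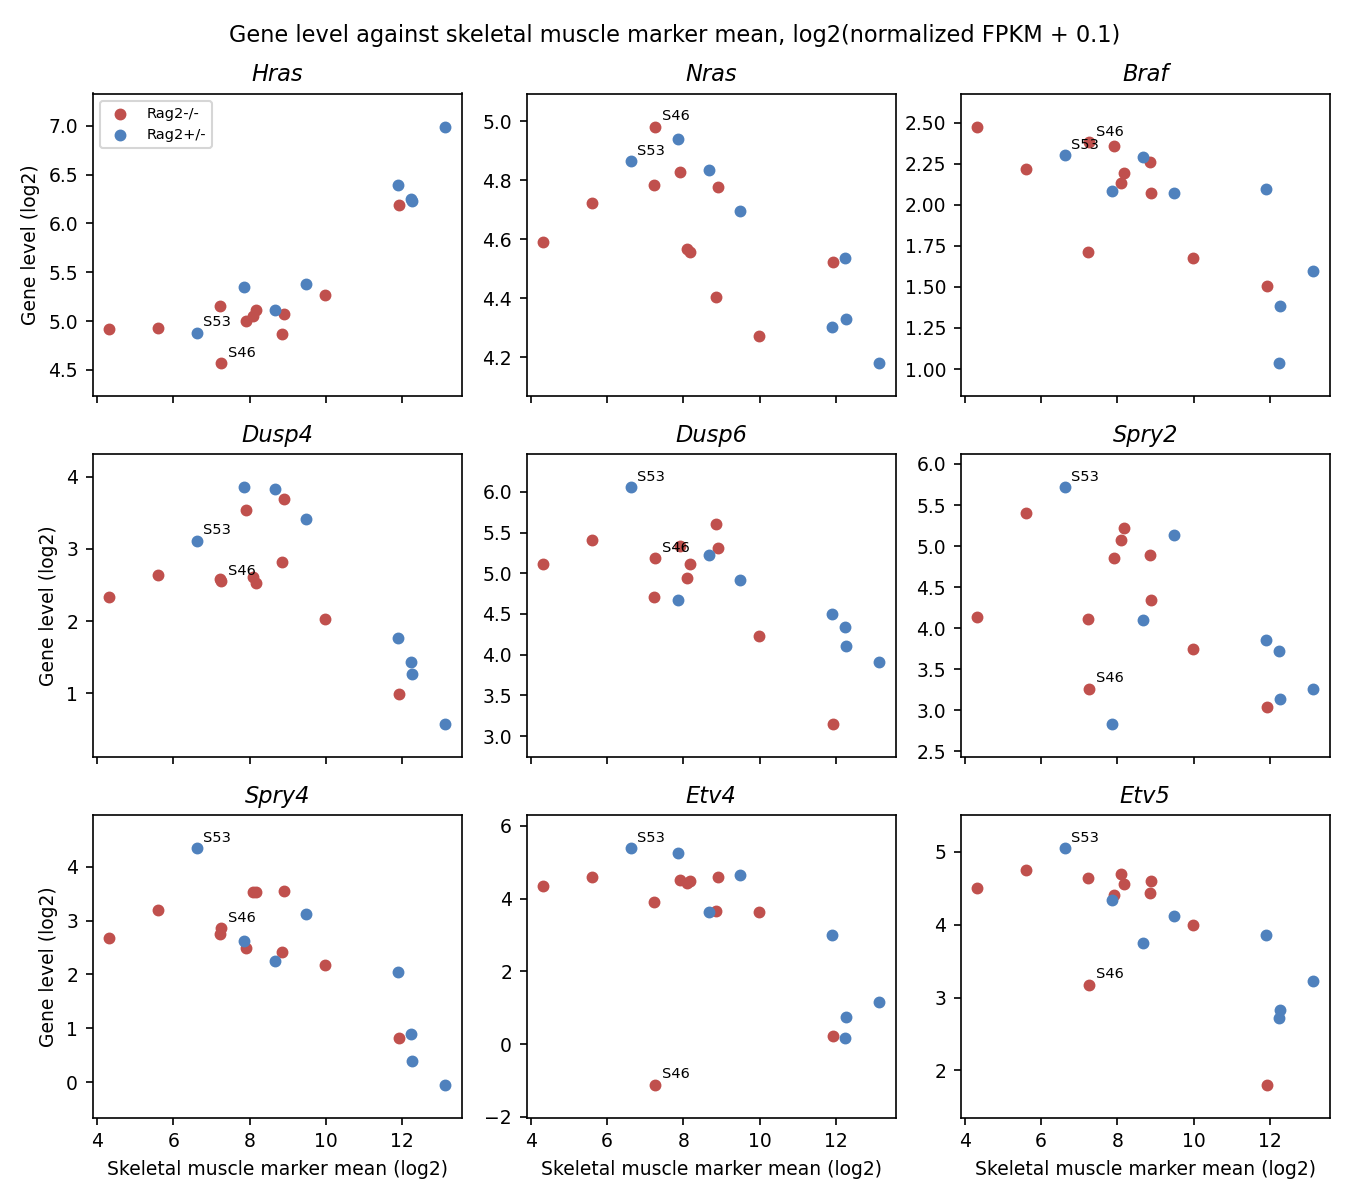
Level of each gene (vertical axis, log2(normalized FPKM + 0.1)) against the mean of 12 skeletal muscle genes (horizontal axis, same scale) in 19 tumors, Rag2-/- in red and Rag2+/- in blue, with S46 and S53 named. No tumor lies between 9.97 and 11.9 on the horizontal axis, and Hras is the gene that is highest on its right side.

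Correlations among the 9 genes were computed for 36 pairs and counted when Pearson's r and Spearman's rho both had an adjusted p under 0.05 over the 36 (two-sided permutation tests, 100000 permutations). Over all 19 tumors 29 pairs passed, 22 positive and 7 negative, every negative pair involving Hras. Within the 14 tumors of lower muscle level 0 of 36 passed, while 7 had an unadjusted p under 0.05 for both coefficients. The count over all tumors therefore does not hold within this smaller set. As background, the median absolute rho over the 36 pairs was 0.60 over 19 and 0.22 over 14 tumors, beside 0.46 and 0.24 between the 9 genes and the 12817 other genes tested. Hras and Braf had negative coefficients within the 14 tumors, r = −0.63 (permutation p = 0.0179, adjusted p = 0.109) and rho = −0.77 (permutation p = 0.00197, adjusted p = 0.0572). Hras and Dusp6 had r = −0.61 (permutation p = 0.0215, adjusted p = 0.109) and rho = −0.74 (permutation p = 0.00318, adjusted p = 0.0572). Leaving out the 2 tumors that lie farthest from the Hras median, S46 and S54, gave r = −0.66 for Braf and −0.83 for Dusp6. After the muscle mean was taken out over the 19 tumors, 5 pairs passed, all positive and all among the feedback targets. They were Etv4 with Etv5 (r = 0.83, rho = 0.76, permutation adjusted p = 0.00144 and 0.00612), Spry4 with Etv5 (r = 0.59, rho = 0.69), Spry2 with Etv5 (r = 0.60, rho = 0.64), Spry2 with Spry4 (r = 0.61, rho = 0.58) and Dusp6 with Spry2 (r = 0.62, rho = 0.60), the last 4 with a permutation adjusted p of 0.0487 for r and of 0.0113 to 0.0411 for rho. Taking it out within the 14 tumors left 0 pairs. On these residuals Hras and Braf had r = −0.23 and rho = −0.35 over 19 tumors (permutation adjusted p = 0.454 and 0.210), and r = −0.50 and rho = −0.60 within the 14 (permutation adjusted p = 0.252 and 0.117). Hras and Dusp6 had r = −0.43 and rho = −0.51 over 19 tumors (permutation adjusted p = 0.132 and 0.0652), and r = −0.54 and rho = −0.73 within the 14 (permutation adjusted p = 0.182 and 0.0689). Inside the 14 tumors the muscle mean itself had r = 0.49 and rho = 0.48 with Hras (permutation p = 0.0750 and 0.0879) and r = −0.51 and rho = −0.55 with Braf (permutation p = 0.0617 and 0.0443), adjusted p = 0.312 or more over the 162 pairs with list means.

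Among the feedback targets, the 3 highest rho values within the 14 tumors were among Spry2, Spry4 and Etv5, while the highest r was that of Etv4 with Etv5. Of all genes tested, 4.54% had a higher rho with Etv5 than Spry2 had, and 1.40% a higher rho with Spry2 than Etv5 had. For Spry4 and Etv5 these shares were 5.08% with Etv5 and 0.366% with Spry4, and for Spry2 and Spry4 they were 2.91% with Spry2 and 0.811% with Spry4. Spry2 and Etv5 had r = 0.63 (permutation p = 0.0151, adjusted p = 0.109) and rho = 0.69 (permutation p = 0.00723, adjusted p = 0.0862). Spry4 and Etv5 had r = 0.57 (permutation p = 0.0344, adjusted p = 0.124) and rho = 0.68 (permutation p = 0.00958, adjusted p = 0.0862). For Spry2 and Spry4, r was 0.60 and rho 0.64 (permutation p = 0.0224 and 0.0166, adjusted p = 0.109 and 0.120). After the 2 tumors farthest from the first gene's median were left out, these r values became 0.60, 0.39 and 0.72, so that of Spry4 and Etv5 rests in part on S49 and S53. Etv4 and Etv5 had r = 0.81 (permutation p = 0.00140, adjusted p = 0.0504) but rho = 0.52 (permutation p = 0.0582, adjusted p = 0.191), and r fell to 0.40 without S46 and S53, so the relation rests on these tumors. Removing S46 alone left 2 of the 36 pairs past the adjusted level, Hras with Dusp6 (r = −0.78, rho = −0.82, permutation adjusted p = 0.0256 and 0.0331) and Spry4 with Etv5 (r = 0.77, rho = 0.79, permutation adjusted p = 0.0256 and 0.0333). Within the 10 Rag2-/- tumors of the set 0 of 36 passed, with rho = −0.88 for Hras and Braf (permutation p = 0.00160, adjusted p = 0.0576), and the 4 Rag2+/- tumors were too few for a coefficient. Dusp4 and Spry2 had r = −0.08 and rho = −0.03 within the 14 tumors (permutation p = 0.778 and 0.926, adjusted p = 0.823 and 0.979), and Dusp4 and Spry4 had r = 0.02 (permutation p = 0.946, adjusted p = 0.957). Both values rest on S55 and S58, the tumors farthest from the Dusp4 median, without which r was 0.38 and 0.34.

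**Figure D4:**
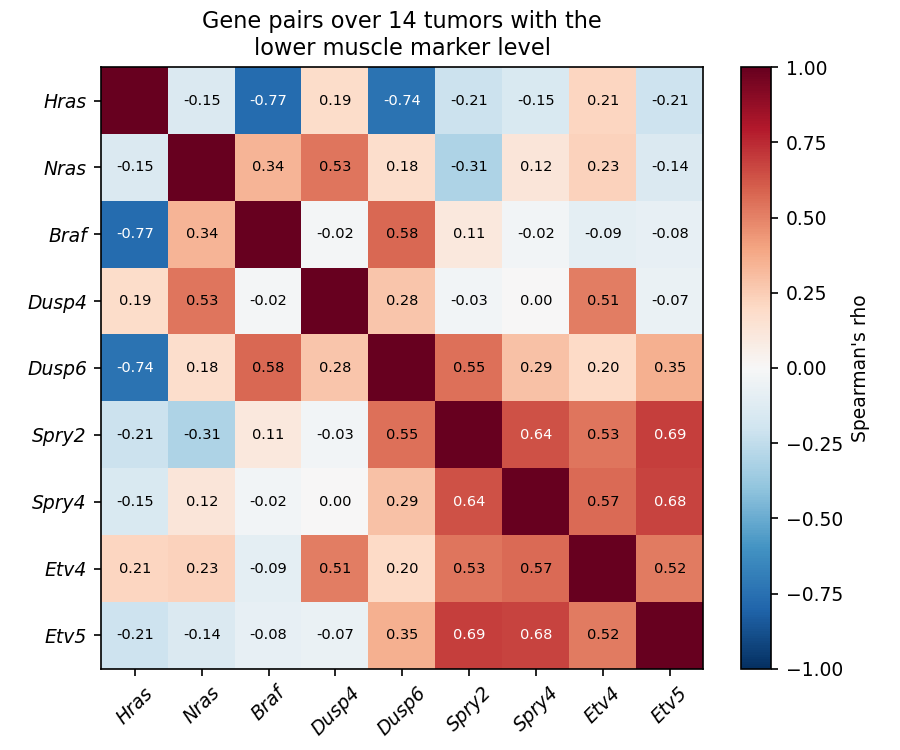
Spearman's rho for each pair of the 9 genes over the 14 tumors of lower muscle level, blue for negative and red for positive, both axes listing the genes. The darkest off-diagonal cells are Hras with Braf (−0.77) and with Dusp6 (−0.74), and the red block at the lower right joins Spry2, Spry4, Etv4 and Etv5.

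Against the means of 18 lists (6 of pathway genes and 12 of cell markers, 162 pairs), 66 pairs passed the same rule over all 19 tumors and 0 within the 14, where 19 had an unadjusted p under 0.05 for both coefficients. The median absolute rho of the 9 genes with the 18 lists was 0.46 over 19 and 0.25 over 14 tumors, beside 0.33 and 0.25 for the 12817 other genes tested. Etv5 and the 11 cell cycle genes had r = 0.87 (permutation p = 4e-05, adjusted p = 0.00648) and rho = 0.72 (permutation p = 0.00475, adjusted p = 0.203) within the 14, with r = 0.74 without S46 and S55. Etv4 and the adipocyte list had r = −0.83 (permutation adjusted p = 0.0302) and rho = −0.73 (permutation adjusted p = 0.203), and r = −0.52 without S46 and S47. With the list of other ERK targets, Etv5 and Spry2 had rho of 0.69 and 0.70 (permutation adjusted p = 0.203 for both) and r of 0.86 and 0.67 (permutation adjusted p = 0.0302 and 0.0741). Without S46 and S47 these r values were 0.61 and 0.57. Among genes outside each list, an r within the 14 tumors beyond that of the member was found for 2.04% (Etv5 with the cell cycle list), 2.23% (Etv4 with the adipocyte list), 2.15% (Etv5 with the other ERK targets) and 14.3% (Spry2 with the other ERK targets). By rho these shares were 7.13%, 1.65%, 4.65% and 4.09%, in the same order.

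The genes whose pattern was most like each member's were taken by Spearman's rho over the 19 tumors, with rho over the 14 beside it as a description. Etv5 was closest to Spred2, which encodes an inhibitor of RAS signaling, at 0.97 over 19 and 0.95 over 14 tumors, followed by Iqgap3 (0.95 and 0.94) and the cell cycle gene Cks1b (0.95 and 0.89). Etv4 was closest to Ncs1 (0.98 and 0.96), Esm1 (0.95 and 0.92) and Dzip1l (0.95 and 0.90). For Spry2 these were the actin-binding genes Parva (0.92 and 0.91) and Tagln (0.92 and 0.87), and Nptx2 (0.91 and 0.91). Spry4 was followed by 4930402H24Rik (0.93 and 0.82), Id3 (0.90 and 0.77) and Sfxn2 (0.89 and 0.74). Dusp6 was closest to Sp3 (0.93 and 0.89), Prr12 (0.93 and 0.90) and Rad50 (0.92 and 0.83), and Dusp4 to C77080 (0.95 and 0.91), Sh3kbp1 (0.91 and 0.79) and Hyou1 (0.91 and 0.82). Hras was closest to Spsb3 (0.93 and 0.86), the proteasome subunit gene Psmc5 (0.93 and 0.87) and Rbfox1 (0.93 and 0.88). Nras went with Edem1 (0.92 and 0.91), Arhgdia (0.91 and 0.86) and Kif3b (0.91 and 0.79), and Braf with Sap130 (0.90 and 0.81), Heatr5b (0.89 and 0.79) and Ppp1r12a (0.89 and 0.79). No other member was among the 3 nearest genes of any member.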

How the data were processed

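Per the labels and the study's methods, RNA was extracted with the AllPrep kit, libraries were made with NEBNext Ultra II and sequenced as 150-base pairs. By the study's methods, the authors aligned reads to mouse B38 with the Omicsoft Sequence Aligner, quantified Ensembl R86 gene models as FPKM, scaled these to the upper quartile and converted them to log2. The deposited log2 values have a floor of −3.32, which shows that 0.1 had been added. The submitters' processing notes also list Trimmomatic 0.36, STAR 5.5.4b and HTSeq with no role given, and which of these made the deposited values was not settled here. Of the deposited values, 63.0% were at the floor, and 0 columns were left unmatched.

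Values are not counts, so log2 values were tested with limma 3.58.1 (R 4.3.3; intensity trend, mean log2 above 0, Benjamini-Hochberg at 0.05) over all 19 tumors, unpaired, which tests the spread between tumors. Single genes were also tested by two-sided exact permutation over 75582 relabelings of the 19 tumors or 1001 of the 14. Depth was estimated from low values, of which 81.0% to 89.6% were whole fragments within 0.05. Correlations used 100000 permutations, so 1e-05 was the smallest p possible, in Python 3.11.15 with numpy 2.4.6, pandas 2.3.3 and scipy 1.17.1. Methods were tested on simulated data. Gene positions come from GENCODE vM21 and upstream sequences from RefSeq.

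The members, the 6 pathway lists and the 12 marker lists were chosen with earlier results of these data known. Named genes are the members, in each list the gene with the lowest p in each direction, the 3 genes closest to each member and Rag2. Of the marker lists, 1 of 4 tested T cell genes and 2 of 3 B and plasma cell genes passed, both lower in Rag2-/- tumors, and 0 of 72 tested genes of the other 10 lists (macrophage, neutrophil, NK cell, endothelial, fibroblast, adipocyte, keratinocyte, Schwann cell, skeletal muscle and cell cycle). The alternatives were the 15 tumors of the study's figure, each tumor left out, pseudocounts of 1 and 0.01, quantile normalization, a median shift, muscle or Xist as a covariate, other filters and no trend. The 14 tumors of lower muscle level and their subsets were added after the data were seen.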

Additional observations from a re-analysis of the deposited data

How the results depend on the processing

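Adjusted p stayed above 0.05 for all 9 genes under every alternative (269 fits, lowest adjusted p 0.0941, Hras with 1 tumor left out), and 249 kept their direction. Hras was negative in all 30 of its fits, from −0.85 to −0.18. In these counts the fit without S41 entered both on its own and among the fits with 1 tumor left out. The other filters and the fit with no trend leave each difference as it is, so no direction could turn there. With muscle as a covariate the direction turned for Nras (−0.12), Braf (−0.057), Dusp4 (−0.52), Dusp6 (−0.33), Spry2 (−0.027), Spry4 (−0.079), Etv4 (−0.87) and Etv5 (−0.22). Within the 14 tumors of lower muscle level it turned for Nras (−0.19), Braf (−0.04), Dusp4 (−0.82), Dusp6 (−0.12), Spry4 (−0.16) and Etv4 (−1.03), with Xist as a covariate for Dusp4 (−0.031) and Etv4 (−0.32), and in the 15 tumors of the study's figure for Nras (−0.054). With each tumor left out in turn, Nras ran from −0.0067 to 0.10 and Dusp4 from −0.095 to 0.37, both turning without S56, and Etv4 from −0.021 to 0.83, turning without S60. Genes passing numbered 4 in the fit reported, 15 in the 15 tumors, 2 with muscle as a covariate, 1 in the 14 tumors, 26 with no filter, 0 with mean log2 above 2 (1676 at an unadjusted p under 0.05 by limma, a filter that leaves out Braf), and 3 to 7 with each tumor left out, 7 without S51 or S56. Pairs passing numbered 29, with 16 in the 15 tumors, 5 on residuals after the muscle mean, 21 to 32 with each tumor left out, 0 in the 14 tumors, 2 without S46 there, and 0 each without S41 there, in its 10 Rag2-/- tumors and on its residuals after muscle. Pairs with list means numbered 66, and 36 in the 15 and 0 in the 14 tumors. The cause of these changes was not tested. Labels give no replicate numbers that tie a Rag2-/- to a Rag2+/- tumor. No paired analysis was possible because the groups compared share fewer than 2 numbers that mark pairs. Estimated fragments were fewest for Etv4 (21.5, in S46), Dusp4 (44.7, in S56) and Spry4 (48.4, in S56). The depth of S46 and S56 was 31.7 and 24.8 M fragments, so these minima are those of low levels in tumors of full depth. For Hras, Nras, Braf, Dusp6 and Spry2 the minimum was in S41, the tumor of lowest depth.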
